A study of Mus musculus with 20 samples.

Results

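The genes described here encode the HIRA histone chaperone complex (Hira, Ubn1, Ubn2, Cabin1) and the ASF1 chaperones of H3-H4 dimers (Asf1a, Asf1b). They also encode the other H3.3 chaperone pair (Daxx, Atrx) and the histone variant H3.3 itself (H3f3a, H3f3b). They were taken by symbol from the gene tables, where all 10 had a row among 29956 genes, and all 10 were among the 13541 genes with enough counts to be tested. The RNA came from melb-a, a mouse line of melanoblasts, and was sequenced as poly(A) libraries in 5 groups of 4. The groups were cells with a lentiviral hairpin against Hira (shHIRA I or shHIRA II), cells with a control hairpin (shLuciferase or shScramble), and parental cells that received no virus. The labels give the genotype of these cells as wt, and the cells grew in 10% serum with 10 ng/ml SCF and 40 pM Fgf2. Exposure to virus lasted 16 h, with polybrene at 8 µg/ml, and infected cells were selected in puromycin at 1 µg/ml. Every group is thus a culture of a single cell line, and each of the other groups carries virus and selection that parental cells lack. Per the design text the 4 libraries of a group are independent replicates.

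H3.3 is the H3 variant that cells make and insert into chromatin all through the cell cycle, whereas canonical H3 is made and deposited with DNA replication. HIRA, held together with ubinuclein and CABIN1, deposits H3.3 in active genes and regulatory regions after receiving it from ASF1a. DAXX and ATRX place H3.3 at telomeres, pericentric repeats and silenced retroelements. Melanoblasts are the precursors of the pigment-producing melanocytes.

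The H3f3a and H3f3b genes encode the same protein from different nucleotide sequences, which decides whether reads can be assigned to either. Their coding parts are both 408 bases long and differ at 95 bases, of which 81 are at the last base of a codon, and 0 codons call for another amino acid. The longest identical stretch is 23 bases, shorter than the 31-base words used here to measure shared sequence. The first 120 coding bases of each are shown from the start codon (GENCODE M21, GRCm38), with the 24 bases that differ between them in capitals.
H3f3a: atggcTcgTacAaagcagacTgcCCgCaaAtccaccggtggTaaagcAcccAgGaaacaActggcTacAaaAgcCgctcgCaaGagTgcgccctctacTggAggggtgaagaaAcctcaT
H3f3b: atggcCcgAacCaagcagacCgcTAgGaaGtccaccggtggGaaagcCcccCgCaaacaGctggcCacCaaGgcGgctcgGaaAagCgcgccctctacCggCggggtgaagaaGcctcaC
Asf1a and Asf1b, whose proteins differ, are shown in the same way, with the 25 bases that differ in capitals. Their coding parts (612 and 606 bases) are identical at 70.2% of aligned positions, with a longest shared stretch of 20 bases.
Asf1a: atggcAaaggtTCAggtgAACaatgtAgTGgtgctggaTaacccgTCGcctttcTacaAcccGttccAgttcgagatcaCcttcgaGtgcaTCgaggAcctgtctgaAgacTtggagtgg
Asf1b: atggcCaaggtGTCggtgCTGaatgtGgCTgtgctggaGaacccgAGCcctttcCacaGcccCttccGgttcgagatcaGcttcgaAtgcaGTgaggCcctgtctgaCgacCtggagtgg

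The members split by hairpin. With shHIRA I, Hira fell and Asf1a rose, the rise holding in 3 of 12 fits that each left out 1 library. In libraries labelled shHIRA II, H3f3a fell, Asf1a, Daxx and H3f3b rose, and Hira was not measurably lower. Summed with Mcm9, an overlapping gene, Asf1a was called with neither hairpin (adjusted p = 0.963 with shHIRA I and 0.710 in libraries labelled shHIRA II). Levels below are counts per 1e6 counts after TMM scaling (CPM) unless TPM, which is per length, is named. A call is an adjusted p under 0.05 by edgeR's quasi-likelihood test on all 20 libraries, with Benjamini-Hochberg adjustment over the 13541 genes.

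With shHIRA I, 2 of 10 members were called (1 higher, 1 lower), where 19.7% of all genes tested were called (10.9% higher, 8.87% lower). In libraries labelled shHIRA II 4 were called (3 higher, 1 lower), against 32.4% of all genes (15.7% higher, 16.7% lower). For both hairpins together 3 were called (1 higher, 2 lower), against 29.3% (14.2% higher, 15.1% lower). The members' share of calls in these comparisons was near that of all genes. Between the hairpins, as shHIRA II minus shHIRA I, 5 were called (3 higher, 2 lower), against 21.0% (8.60% higher, 12.4% lower). On TPM with limma, 66.3% of the calls over all genes with shHIRA I were higher (55.0% in the edgeR test), as were 61.3% of those in libraries labelled shHIRA II (48.5%) and 65.0% of those for both together (48.5%). The members' median log2 fold change for both hairpins together was 0.056, beside 0.033 over all genes tested, and their median absolute change was 0.29 beside 0.32.

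Against a single control hairpin the counts were no larger. With shHIRA I, 1 member was called against shLuciferase (Hira, lower), where 12.0% of all genes were called (6.30% higher, 5.66% lower), and 2 against shScramble (Asf1a higher, Hira lower), where 14.9% were (7.95% higher, 6.93% lower). In libraries labelled shHIRA II, 3 were called against shLuciferase (Daxx and H3f3b higher, H3f3a lower), beside 24.3% of all genes (10.5% higher, 13.9% lower). Against shScramble 3 were called as well (Asf1a and Daxx higher, H3f3a lower), beside 24.8% (11.1% higher, 13.7% lower). Called in 1 direction in all 4 of these comparisons were 0 of 10 members, beside 4.33% of all genes (1.88% higher, 2.46% lower). The hairpins share their control libraries.

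**Figure D1:**
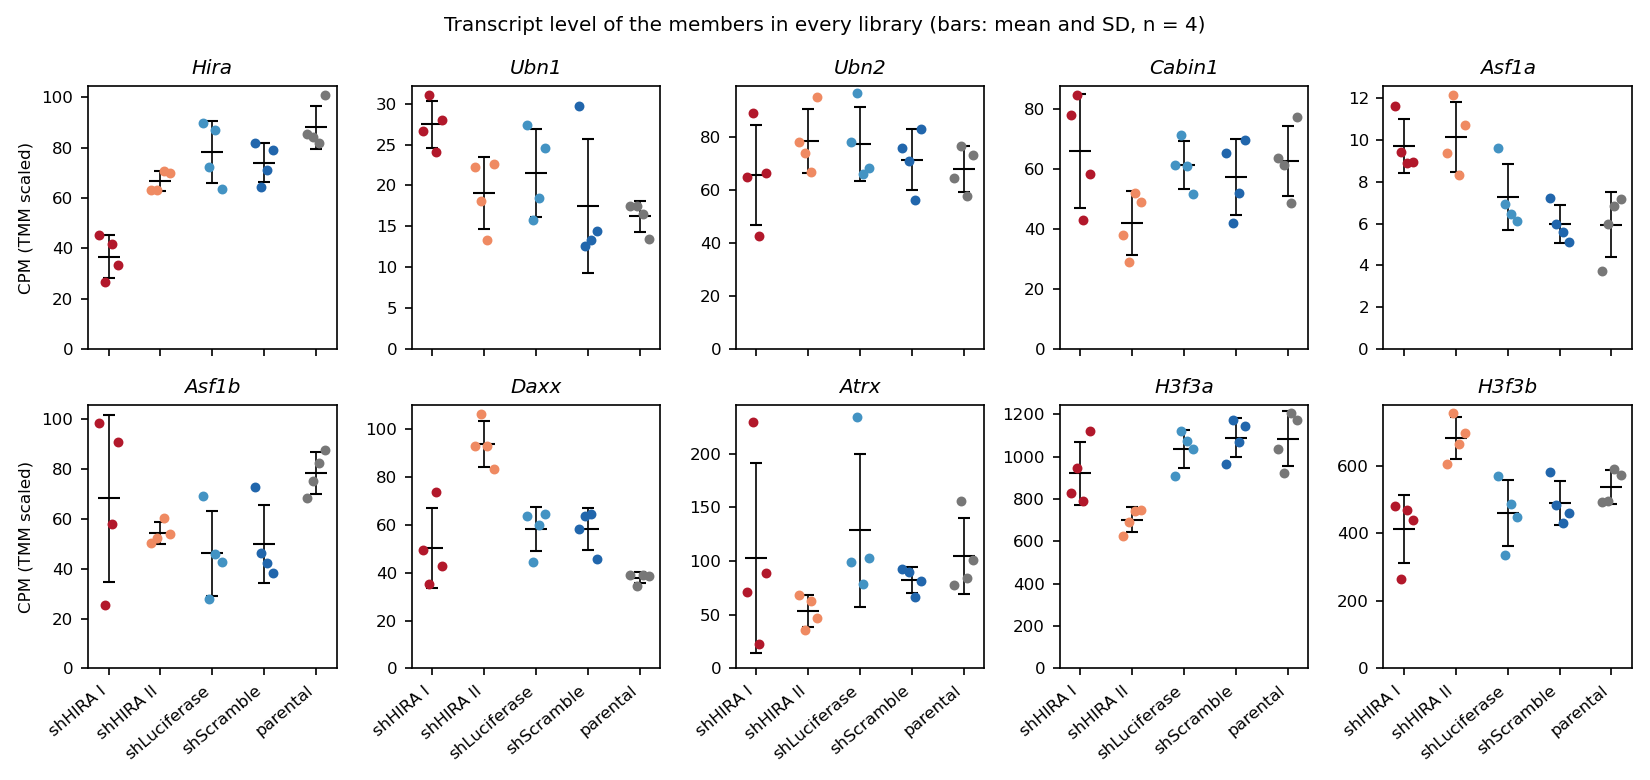
CPM of each of the 10 genes in every library; each panel has the 5 groups on the x axis, 4 points a group, and bars for mean and SD. Hira lies lowest with shHIRA I (26.6 to 45.4 CPM), and in libraries labelled shHIRA II H3f3a lies below, and Daxx and H3f3b above, all 8 control shRNA libraries.

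Library totals ran from 14.95 to 20.7 M estimated counts (M, 1e6). Mitochondrial mRNA made up 1.23 to 9.58% of counts with shHIRA I and 2.88 to 4.71% in libraries labelled shHIRA II, against 6.43 to 9.96% with shLuciferase, 7.28 to 9.75% with shScramble and 5.50 to 8.88% in parental cells. Every library labelled shHIRA II thus lay below every control shRNA library. Fits with this share (as log2) as covariate therefore cannot tell it apart from the hairpin in those libraries. Of 10 melanoblast markers, 9 averaged over 1 CPM in parental cells, while Ednrb was at 0 there and at most 0.0567 CPM in any group's mean. Sox10 averaged 0.656 CPM with shHIRA I and 0.310 CPM in libraries labelled shHIRA II, against means of 0.0589 (shLuciferase), 9.35 (shScramble) and 7.62 CPM (parental). The summed level of the 10 markers was 1392 to 4028 CPM with shHIRA I and 782 to 1351 CPM in libraries labelled shHIRA II, against 4593 to 6886 CPM with shLuciferase, 4064 to 6808 CPM with shScramble and 4449 to 5956 CPM in parental cells. For 7 fibroblast markers, of which 5 or 6 in each group averaged over 1 CPM, the summed level was 125 to 247 CPM with shHIRA I and 26.3 to 46.5 CPM in libraries labelled shHIRA II, against 60.6 to 126 CPM in the control shRNA libraries. Over all libraries the keratinocyte list summed to 1.91 to 5.69 CPM, the leukocyte list to 0.807 to 4.47 CPM and the endothelial list to 0.707 to 14.4 CPM. A Schwann cell list of 4 genes summed to 85.7 to 317 CPM with shHIRA I and 155 to 239 CPM in libraries labelled shHIRA II, against 228 to 586 CPM in the control shRNA libraries. The part of these differences in the results below was not tested, and in bulk RNA fewer cells of a type and less RNA per cell cannot be told apart.

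Hira, the histone-binding scaffold of the complex (chromosome 16, 18877037 to 18970309, plus strand, GRCm38), is the target of both hairpins. Its level was 45.4, 26.6, 41.8 and 33.3 CPM with shHIRA I and 63.2, 63.3, 70.9 and 69.8 CPM in libraries labelled shHIRA II. It was 89.8, 72.2, 87.1 and 63.7 CPM with shLuciferase, 81.7, 64.4, 71.3 and 79.0 CPM with shScramble, and 85.3, 84.4, 81.9 and 101 CPM in parental cells. All 4 libraries with shHIRA I lay below the 8 control shRNA libraries, as did 2 of the 4 labelled shHIRA II, by less than 1 CPM each. Against control shRNA, Hira stood at 48.3% with shHIRA I (95% interval 39.3 to 59.4%, adjusted p = 5.15e-05) and at 87.8% in libraries labelled shHIRA II (72.0 to 107%, adjusted p = 0.306). The log2 value behind the second of these, −0.19, was −0.34 with mitochondrial share as covariate (adjusted p = 0.0858), −0.40 against parental cells (adjusted p = 0.0618) and −0.099 with limma on TPM (adjusted p = 0.661). As shHIRA II minus shHIRA I, the log2 difference was 0.86 (SE 0.16, adjusted p = 0.00096). Per length, Hira had rank 5 of the 10 genes with shHIRA I, at 24.4 ± 5.85 TPM, and rank 3 in parental cells, at 51.8 ± 8.06 TPM (SD, n = 4 each).

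Transcripts of Gm28539, a predicted gene overlapping Hira on the same strand (chromosome 16, 18836584 to 18956247), hold 43.1% of the 31-mers of Hira. Gm28539 was at an estimated count of 0 in the 8 shHIRA libraries and between 4.44e-07 and 313 in the 12 others. With both genes summed, Hira stood at log2 −1.14 with shHIRA I (adjusted p = 4.94e-05) and −0.28 in libraries labelled shHIRA II (adjusted p = 0.158), and neither call differed from that of Hira alone.

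The partners of Hira in the complex were not called against control shRNA with either hairpin in the edgeR test on all libraries, though Ubn1 and Cabin1 were under some alternatives. Ubn1 and Ubn2 are alternative ubinucleins, which bind H3.3-H4 and link it to HIRA, and Cabin1 is a further component. Ubn1 (chromosome 16, 5050057 to 5086289, plus strand) ran from 24.1 to 31.1 CPM with shHIRA I and from 13.3 to 22.7 CPM in libraries labelled shHIRA II. It ran from 15.7 to 27.4 CPM with shLuciferase, 12.6 to 29.7 CPM with shScramble and 13.4 to 17.5 CPM in parental cells. The groups overlapped, except that every shHIRA I library lay above every library labelled shHIRA II and every parental library. The log2 fold change against control shRNA was 0.50 with shHIRA I (95% interval 0.054 to 0.95, adjusted p = 0.109) and −0.025 in libraries labelled shHIRA II (−0.48 to 0.43, adjusted p = 0.945). Without shScramble replicate 1, whose 29.7 CPM stood apart from the other 3 of its group, the value with shHIRA I was 0.69 (adjusted p = 0.00698). This was the 1 call among 12 fits that each left out 1 library (0.43 to 0.69). Against parental cells the value with shHIRA I was 0.76 (adjusted p = 0.0448).

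Ubn2 (chromosome 6, 38433950 to 38524825, plus strand) was the more abundant ubinuclein per length in all 5 groups. It stood at 7.82 ± 3.04 TPM with shHIRA I and 8.93 ± 1.91 TPM in libraries labelled shHIRA II, against 6.92 ± 1.35 TPM in parental cells (SD, n = 4 each). Ubn1 stood at 5.09 ± 1.16 TPM with shHIRA I and 3.43 ± 0.897 TPM in libraries labelled shHIRA II, against 2.60 ± 0.302 TPM in parental cells. Ubn1 therefore made up 35.7 to 47.1% of the ubinuclein TPM with shHIRA I and 23.97 to 31.1% in libraries labelled shHIRA II, against 20.5 to 38.3% in the control shRNA libraries, whose range overlapped both. For Ubn2 the log2 fold changes were −0.18 with shHIRA I (95% interval −0.53 to 0.18) and 0.078 in libraries labelled shHIRA II (−0.27 to 0.43), neither of them called (adjusted p = 0.507 and 0.752).

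Cabin1 (chromosome 10, 75646112 to 75764341, minus strand) differed between the hairpins. It stood at 38.1, 29.1, 52.0 and 49.2 CPM in libraries labelled shHIRA II and at 78.2, 84.7, 43.2 and 58.4 CPM with shHIRA I. It was 61.4, 71.4, 61.1 and 51.7 CPM with shLuciferase, 65.5, 42.2, 52.3 and 69.8 CPM with shScramble, and 63.7, 61.3, 48.8 and 77.5 CPM in parental cells. The hairpin groups overlapped through the 43.2 CPM of shHIRA I replicate 3, the library of lowest mitochondrial share. As shHIRA II minus shHIRA I the log2 fold change was −0.65 (SE 0.22, adjusted p = 0.0454). Against control shRNA it was −0.50 in libraries labelled shHIRA II (95% interval −0.91 to −0.082, adjusted p = 0.0614) and 0.15 with shHIRA I (adjusted p = 0.626). The first of these was called with only the compared groups in the fit (−0.51, adjusted p = 0.0355), with DESeq2 (−0.47, adjusted p = 0.0492), without shScramble replicate 2 (−0.58, adjusted p = 0.0333) and without shHIRA II replicate 3 (−0.60, adjusted p = 0.0460), and was −0.25 with mitochondrial share as covariate (adjusted p = 0.382). The call between hairpins held in 2 of 8 fits that each left out 1 library (−0.83 to −0.51) and ended with limma on TPM (adjusted p = 0.137), without the filter on low counts (0.0756) and with only the hairpin groups in the fit (0.145).

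Asf1a was the member called higher with either hairpin against both control hairpins together. Asf1a is the ASF1 paralog known to pass H3.3-H4 to HIRA (chromosome 10, 53596757 to 53609225, plus strand). Its level was 11.6, 9.43, 8.89 and 8.96 CPM with shHIRA I and 9.38, 12.2, 8.31 and 10.7 CPM in libraries labelled shHIRA II. It was 9.61, 6.93, 6.46 and 6.15 CPM with shLuciferase, 7.23, 5.96, 5.59 and 5.11 CPM with shScramble, and 3.75, 5.999, 6.84 and 7.19 CPM in parental cells. The shHIRA libraries lay above all control shRNA libraries but shLuciferase replicate 1, which reached into their range. The log2 fold change was 0.56 with shHIRA I (SE 0.19, adjusted p = 0.0416), 0.62 in libraries labelled shHIRA II (SE 0.19, adjusted p = 0.0159) and 0.59 for both together (SE 0.16, adjusted p = 0.00827). The hairpins differed by 0.061 (95% interval −0.40 to 0.52). With shHIRA I the call held in 3 of 12 fits that each left out 1 library (0.45 to 0.64). It held in 11 of 12 for libraries labelled shHIRA II and ended without shHIRA II replicate 2 (0.52, adjusted p = 0.0720). The shHIRA I call also ended without the filter on low counts (adjusted p = 0.102) and with mitochondrial share as covariate (0.0520). The shHIRA II call ended without shHIRA I replicate 3 and shHIRA II replicate 2 together (0.0564). In each of these fits the other hairpin's call held. Against shLuciferase alone Asf1a was called with neither hairpin (adjusted p = 0.249 and 0.122).

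Asf1a had the fewest counts of the 10 genes, and 44.9% of its 31-mers occur, on the opposite strand, in transcripts of Mcm9, a helicase gene that runs across it (chromosome 10, 53536315 to 53630439, minus strand). The library kit keeps strand, but whether the quantification used it is not given in the sources used here, so reads of these genes may not be told apart. The estimated counts of Mcm9 were 0.415, 104, 111 and 218 with shHIRA I and 100.2, 40.7, 0.00495 and 114 in libraries labelled shHIRA II. They were 182, 127, 171 and 142 with shLuciferase, 163, 154, 197 and 144 with shScramble, and 1.73, 206, 0.485 and 242 in parental cells. Mcm9 was thus under 2 counts in 4 libraries of 3 groups, beside libraries of the same groups with over 100 counts. Summed with Mcm9, Asf1a had log2 fold changes of 0.028 with shHIRA I, −0.17 in libraries labelled shHIRA II and −0.071 for both together, none of them called (adjusted p = 0.963, 0.710 and 0.862). How reads of the pair were divided in the deposited counts was not tested.

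**Figure D2:**
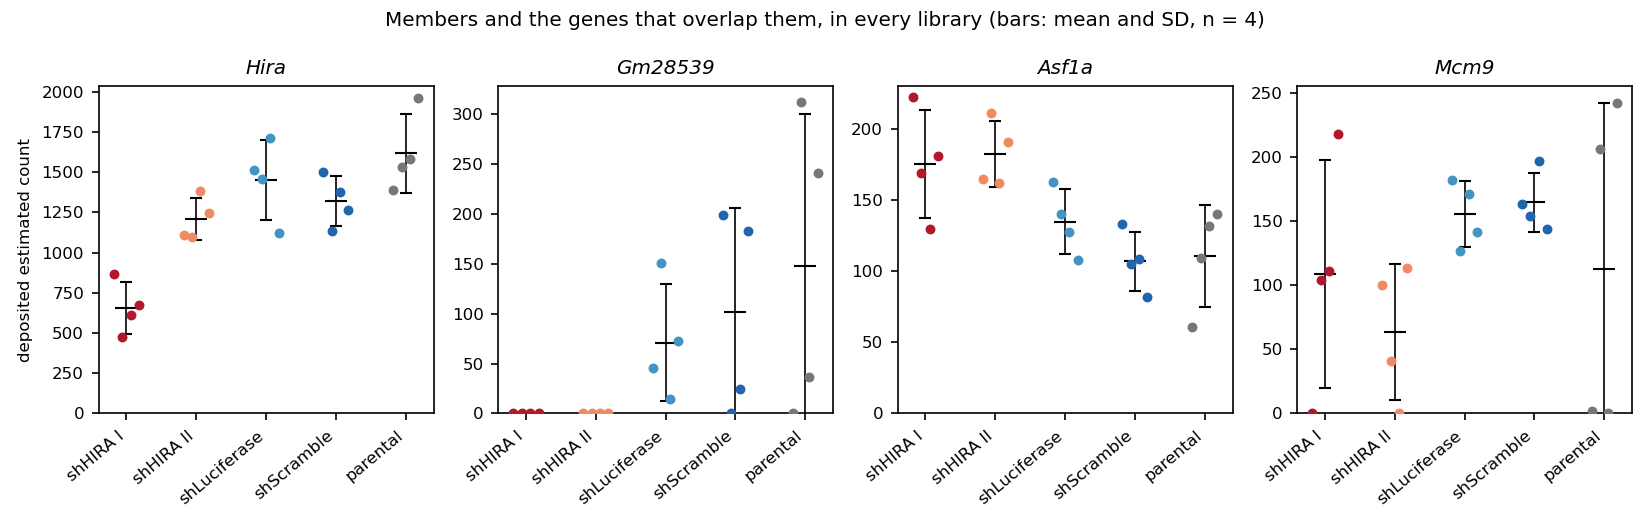
Deposited estimated counts of Hira and Asf1a and of the genes that overlap them, in every library of the 5 groups, with mean and SD. Gm28539 is at 0 in the 8 shHIRA libraries, and Mcm9 falls to under 2 counts in 4 libraries of 3 groups while Asf1a stays between 60.5 and 222 counts.

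Asf1b, the ASF1 paralog tied to proliferating cells (chromosome 8, 83955507 to 83970197, plus strand), was the more abundant of the pair per length. Asf1a made up 7.14 to 22.5% of the ASF1 TPM with shHIRA I and 9.71 to 15.4% in libraries labelled shHIRA II, against 7.20 to 16.4% in the control shRNA libraries and 4.07 to 6.10% in parental cells. Asf1b itself ran from 25.3 to 98.4 CPM with shHIRA I, wider than in any other group, and from 50.4 to 60.4 CPM in libraries labelled shHIRA II. It ran from 27.7 to 72.8 CPM in the control shRNA libraries and from 68.5 to 87.7 CPM in parental cells. The fold changes were 0.51 with shHIRA I (95% interval −0.060 to 1.07, adjusted p = 0.206) and 0.18 in libraries labelled shHIRA II (−0.40 to 0.75, adjusted p = 0.656) on the log2 scale. The first of these was 0.78 without shHIRA I replicate 2, the lowest of that group (adjusted p = 0.0173), and 0.27 without replicate 1, the highest.

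H3f3a, which gave most of the H3.3 mRNA (chromosome 1, 180800832 to 180813943, minus strand), was lower in libraries labelled shHIRA II. These stood at 624, 691, 742 and 750.0 CPM, and the shHIRA I libraries at 826, 947, 789.7 and 1119 CPM. The level was 910.4, 1119, 1076 and 1038 CPM with shLuciferase, 967, 1172, 1069 and 1146 CPM with shScramble, and 1038, 925, 1204 and 1172 CPM in parental cells. The libraries labelled shHIRA II lay below every library of the other 4 groups, while 2 of the 4 shHIRA I libraries lay within the control range. Against control shRNA the log2 fold change was −0.60 in libraries labelled shHIRA II (SE 0.11, adjusted p = 0.000695), which is 66.1% of control (95% interval 56.0 to 78.1%). With shHIRA I it was −0.21 (SE 0.11, adjusted p = 0.217), and for both together −0.40 (SE 0.091, adjusted p = 0.00297). The calls for shHIRA II and for both together held in each fit that left out 1 library, and that for both together ended with limma on TPM (−0.31, adjusted p = 0.0502).

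As shHIRA II minus shHIRA I, H3f3a differed by −0.39 (SE 0.13, adjusted p = 0.0372), a call that held in 2 of 8 fits that each left out 1 library (−0.48 to −0.28) and ended with limma on TPM (adjusted p = 0.0941). Other transcripts on the same strand, mostly of H3f3a pseudogenes and of the H3.3-like gene H3f3c, hold 17.5% of the 31-mers of H3f3a. The 14 such rows with at least 2% of these 31-mers each held together at most 4.38% of the H3f3a count in any library. On the opposite strand Gm17275, a lincRNA with no row in the tables, holds 17.1%.

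H3f3b, the second H3.3 gene (chromosome 11, 116021912 to 116027962, minus strand), moved the other way. It stood at 605, 754, 664 and 697 CPM in libraries labelled shHIRA II and at 479.8, 265, 469.9 and 438 CPM with shHIRA I. It was 569, 336, 487 and 448 CPM with shLuciferase, 582, 484, 431 and 459 CPM with shScramble, and 491, 494, 589.6 and 572 CPM in parental cells. The libraries labelled shHIRA II lay above every other library. Against control shRNA the log2 fold change was 0.52 in libraries labelled shHIRA II (SE 0.15, adjusted p = 0.0136) and −0.20 with shHIRA I (SE 0.16, adjusted p = 0.407), and the hairpins differed by 0.72 (SE 0.18, adjusted p = 0.00806; 0.0722 with only the hairpin groups in the fit). The call against control shRNA ended without shHIRA II replicate 2 (0.46, adjusted p = 0.0526), with the mitochondrial share as a covariate (0.34, adjusted p = 0.140) and against parental cells (0.34, adjusted p = 0.160).

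The composition of H3.3 mRNA differed in libraries labelled shHIRA II. H3f3a made up 69.1, 66.6, 70.8 and 70.0% of the summed TPM of both genes there, and 78.9, 88.6, 78.5 and 84.7% with shHIRA I. It made up 77.6 to 87.8% with shLuciferase, 78.3 to 84.4% with shScramble and 80.2 to 82.1% in parental cells. The 4 libraries labelled shHIRA II lay below the other 16, a ratio that no scaling between libraries can alter. Shared sequence can enter it, since other transcripts on the same strand hold 11.2% of the 31-mers of H3f3b as well. Of these Gm6485, which has its own row, holds 6.31% of the 31-mers and was not summed with H3f3b. The summed level was 1382, 1342, 1735 and 1759 TPM in libraries labelled shHIRA II and 1770, 1835, 1240.3 and 2112 TPM with shHIRA I, against 1757 to 1932 TPM in the control shRNA libraries and 1611 to 2082 TPM in parental cells. The sums in libraries labelled shHIRA II lay below all shScramble libraries and overlapped the shHIRA I, shLuciferase and parental groups, the shLuciferase group only through its lowest library. These sums were not rescaled, and the deposited TPM totals were unequal. Over all genes they were 806826 to 841735 in libraries labelled shHIRA II and 793366 in shHIRA I replicate 3, against 851366 to 859908 in the control shRNA libraries.

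**Figure D3:**
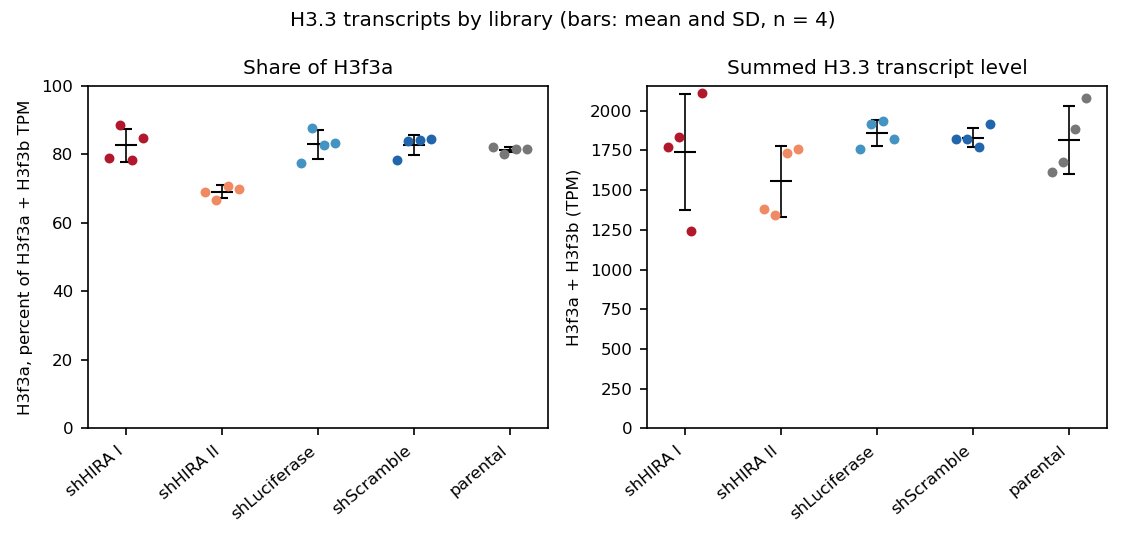
Left, H3f3a as a percentage of the TPM of H3f3a and H3f3b; right, the summed TPM of both genes; 1 point per library, bars for mean and SD of 4 libraries. The share in libraries labelled shHIRA II is 66.6 to 70.8%, below the 77.6 to 88.6% of the other groups, and the sum is 1342 to 1759 TPM there, against 1757 to 1932 TPM in the control shRNA libraries.

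Daxx, the H3.3-specific chaperone that works with Atrx (chromosome 17, 33909414 to 33915590, plus strand), was higher in libraries labelled shHIRA II. It stood at 92.9, 106, 92.9 and 83.2 CPM there and at 49.5, 35.4, 73.8 and 42.7 CPM with shHIRA I. It was 63.7, 44.7, 59.9 and 64.4 CPM with shLuciferase, 58.5, 63.8, 64.7 and 45.7 CPM with shScramble, and 39.1, 34.3, 39.2 and 38.8 CPM in parental cells. The libraries labelled shHIRA II lay above all others, and parental cells below all control shRNA libraries. Against control shRNA the log2 fold change was 0.69 in libraries labelled shHIRA II (SE 0.16, adjusted p = 0.00265), a call that held in each of 12 fits that left out 1 library (0.62 to 0.76). It was 0.38 with mitochondrial share as covariate (adjusted p = 0.0407) and 1.31 against parental cells (adjusted p = 7.65e-05). With shHIRA I it was −0.21 (95% interval −0.55 to 0.13, adjusted p = 0.404), with −0.46 without replicate 3, the library of lowest mitochondrial share (adjusted p = 0.0242), −0.53 with mitochondrial share as covariate (adjusted p = 0.00654) and −0.075 without replicate 2. The hairpins differed by 0.90 (SE 0.19, adjusted p = 0.00235).

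Daxx was also the member that differed between control shRNA and parental cells, at log2 0.62 (SE 0.17, adjusted p = 0.0444). In that comparison 1 of 10 members was called, as were 3.62% of all genes tested (2.05% higher, 1.57% lower); on TPM with limma 73.9% of the calls over all genes were higher, against 56.7% in the edgeR test. The call of Daxx held in 2 of 12 fits that each left out 1 library. Asf1b was not called (−0.71, 95% interval −1.27 to −0.14, adjusted p = 0.172). Between the control hairpins, as shScramble minus shLuciferase, edgeR called 0 of the 13541 genes (170 had an unadjusted p under 0.05, none of them a member) and DESeq2 called 4.

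Atrx, the chromatin remodeller that acts with Daxx (X chromosome, 105797615 to 105929403, minus strand), varied most within groups. The SD within groups was 0.74 on the log2 CPM scale, above that of 87.2% of all genes tested, against 0.16 for H3f3a, the member of lowest spread. Atrx stood at 70.8, 229, 23.1 and 88.5 CPM with shHIRA I and at 68.3, 35.8, 62.7 and 46.8 CPM in libraries labelled shHIRA II. It ran from 78.5 to 234 CPM with shLuciferase, 66.1 to 93.0 CPM with shScramble and 77.5 to 156 CPM in parental cells. The log2 fold change in libraries labelled shHIRA II was −0.95 (95% interval −1.83 to −0.069, adjusted p = 0.0912), and with shHIRA I it was −0.0024 (−0.84 to 0.84). With only the shHIRA II and control shRNA libraries in the fit the first value was called (−0.97, adjusted p = 0.0145), and with mitochondrial share as covariate it was 0.046.

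**Figure D4:**
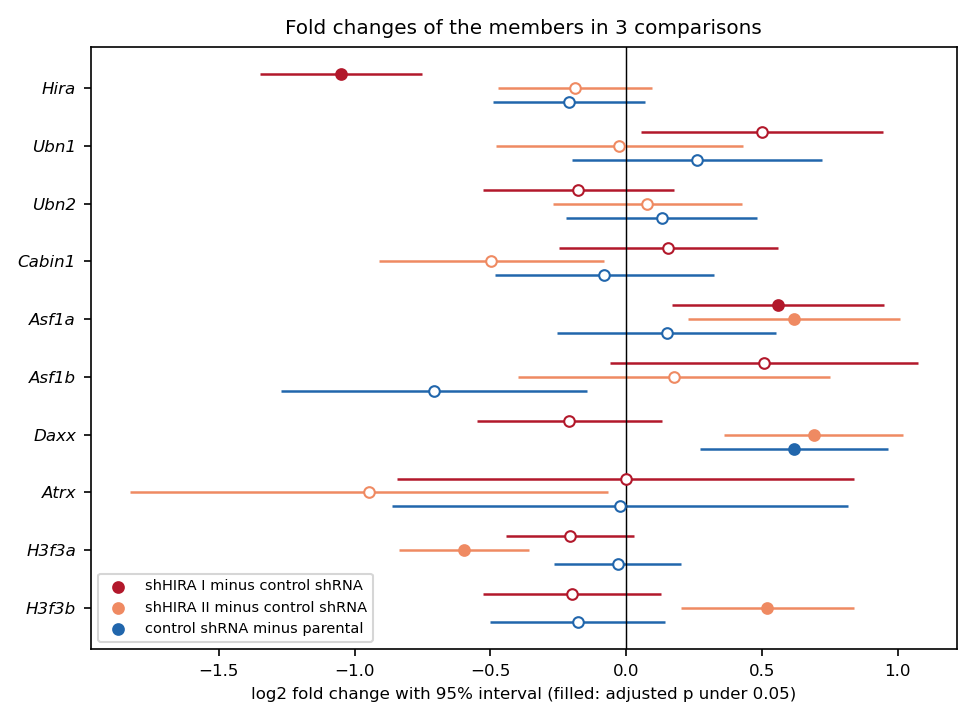
Log2 fold changes of the 10 genes with 95% intervals for shHIRA I and shHIRA II against control shRNA and for control shRNA against parental cells; filled points passed the adjusted threshold. Only Asf1a is filled for both hairpins, at 0.56 and 0.62.

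Per length the order of the members was steep. In parental cells H3f3a (1477 ± 177 TPM) and H3f3b (337 ± 38.9 TPM) led, with ranges that overlapped no other member (SD, n = 4). Hira and Asf1b (50.5 ± 7.74 TPM) followed and overlapped each other, as did Daxx (19.8 ± 1.203 TPM) and Atrx (18.7 ± 7.57 TPM). Cabin1 (8.80 ± 2.12 TPM) overlapped Ubn2, and Asf1a (3.001 ± 0.889 TPM) overlapped Ubn1 at the bottom. In libraries labelled shHIRA II, Daxx (54.7 ± 3.03 TPM) had rank 3 and did not overlap Hira (44.1 ± 7.14 TPM), which had rank 4.

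Of 28 further genes of H3.3 supply and deposition, all tested, 4 were called for both hairpins together, 2 higher and 2 lower, beside 29.3% of all genes. Hat1, the acetyltransferase of newly made H4, stood at 0.67 (SE 0.19, adjusted p = 0.0114), and Dnajc9, a heat shock cochaperone that binds H3-H4, at 0.69 (SE 0.15, adjusted p = 0.00247) on the log2 scale. Both rose. Rbbp7, a histone-binding partner of Hat1, fell (−0.56, SE 0.088, adjusted p = 0.000146), as did Tonsl, which binds new H4 on replicated DNA (−0.52, SE 0.12, adjusted p = 0.00374). Dnajc9 was called with either hairpin, at 0.64 for shHIRA I and 0.75 for libraries labelled shHIRA II. Hat1 was called in libraries labelled shHIRA II (0.75, adjusted p = 0.0137) but not with shHIRA I (0.58, adjusted p = 0.0754). In parental cells Dnajc9 averaged 149 CPM and Hat1 75.7 CPM, above shLuciferase (105 and 56.1 CPM) and shScramble (107 and 56.7 CPM). The means were 164 and 84.2 CPM with shHIRA I and 179 and 95.2 CPM in libraries labelled shHIRA II. Rbbp7 (adjusted p = 9.36e-06) and Tonsl (−0.77, adjusted p = 0.00147) fell with shHIRA I, were not called in libraries labelled shHIRA II (adjusted p = 0.462 and 0.196), and differed between the hairpins (adjusted p = 0.000118 and 0.0392).

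Rbbp7 averaged 179 ± 24.7 CPM with shHIRA I and 332 ± 48.6 CPM in libraries labelled shHIRA II, against 346 ± 18.9 CPM with shLuciferase and 372 ± 32.2 CPM with shScramble (SD, n = 4 each). The shHIRA I libraries overlapped no other group. Tlk2, a kinase that phosphorylates ASF1, stood at 59.3 ± 10.4 CPM with shHIRA I and 112 ± 16.1 CPM in libraries labelled shHIRA II, against 99.1 ± 14.9 CPM with shLuciferase and 92.0 ± 9.98 CPM with shScramble. It fell with shHIRA I against control shRNA (−0.69, adjusted p = 0.00132) and differed between the hairpins (0.92, adjusted p = 0.000424). Untreated parental libraries ranged from 69.4 to 83.7 CPM of Tlk2 (mean 74.1, SD 6.66), so their mean was under that of either control hairpin. They lay just above the shHIRA I libraries, which spanned 44.7 to 68.3 CPM. Control shRNA against parental was not called for Tlk2 (0.37, adjusted p = 0.150), and shHIRA I against parental was not tested for it. Over the 28 genes the median log2 fold change was 0.017 for both hairpins together, 0.068 with shHIRA I and 0.059 in libraries labelled shHIRA II, beside 0.033, 0.046 and 0.018 over all genes tested. Between control shRNA and parental cells 1 of the 28 was called, beside 3.62% of all genes (2.05% higher, 1.57% lower): Sp100, a nuclear body protein (2.38, adjusted p = 0.00591), which is named here after its value was seen.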

How the data were processed

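Poly(A) RNA from 20 melb-a cultures had been made into stranded libraries. The submitters' processing notes name bcl2fastq, kallisto, edgeR and build mm10. Which versions, annotation and strand setting they had is not given in the sources used here. Per these notes and the values, the authors deposited estimated counts per gene, which are not whole numbers, and TPM. In 10272 genes the ratio of count to TPM was 1 constant per gene and 1 per library (largest log2 deviation 2.09e-09). The length that links count and TPM of a gene was thus the same in all libraries. Whether isoform shifts enter the counts was not tested. Columns were assigned by name: Ctl, the remaining group, is parental, and shHIRA with no numeral is shHIRA I.

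Counts were rounded and tested with edgeR 4.0.16 in R 4.3.3 (TMM scaling, default filter by group, quasi-likelihood F test, group means over 20 libraries); intervals are 95%, from the fit. DESeq2 1.42.0 and limma 3.58.1 on log2(TPM + 1) served as alternatives. In data simulated for shHIRA I against control shRNA over 13541 genes, 46% of 2-fold and 12% of 1.5-fold changes were recovered. Only 50 genes were changed there at each fold size (1.5, 2, 3 and 4), a far smaller share than the 19.7% called in the data. Since the adjustment depends on that share, recovery in the data may differ. Members and lists were chosen with earlier results of these data known. Named were all members, partner genes called in the knockdown comparison or with a hairpin (at most 8), and genes sharing at least 10% of a member's 31-mers (GENCODE M21, Biopython 1.88), and the 5 genes closest in log2 CPM to Hira, H3f3a and Asf1a, of which 1 is not reported here. Protein sequences were not used here.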

Additional observations from a re-analysis of the deposited data

Results flagged for a closer look

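As shHIRA II minus shHIRA I, 5 of the 10 members were called, beside 21.0% of all genes (8.60% higher, 12.4% lower): Hira by 0.86, Daxx by 0.90, H3f3b by 0.72, H3f3a by −0.39 and Cabin1 by −0.65 on the log2 scale. Among them Hira, Daxx and H3f3b were called in all 8 fits that each left out 1 library. With only the hairpin groups in the fit, the calls of H3f3b, H3f3a and Cabin1 ended (adjusted p = 0.0722, 0.184 and 0.145).

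Of 50 groups of 4 libraries (10 members in 5 groups), 3 held a highest or lowest library whose gap to its neighbour, as a share of the group's range, passed Dixon's 95% critical value. Chance gives about 1 in 20. They were Ubn1 in shScramble replicate 1 (29.7 CPM), Daxx in parental replicate 2 (34.3 CPM) and Atrx in shLuciferase replicate 2 (234 CPM).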

How the results depend on the processing

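Of 1035 values of single members under the alternatives, 916 kept their direction and their side of the threshold, 50 lost a call, 18 gained one and 51 turned in sign, 49 of these without a call on either side. The other 2 were Asf1a summed with Mcm9 (−0.071 for both hairpins, −0.17 in libraries labelled shHIRA II); between the hairpins that sum gave −0.20. Hira kept its calls for both hairpins together, for shHIRA I and between hairpins under every alternative run.

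Counts moved as follows, and the causes were not tested. Without a filter on low counts, 1 member was called with shHIRA I, 3 between hairpins and 0 for control shRNA against parental (2, 5 and 1 with the filter), beside 2506, 2393 and 342 genes. With only the compared groups in the fit, 1777 genes were called with shHIRA I (1 member) and 1088 between hairpins (2 members). For control shRNA against parental 880 were called. With all groups the counts were 2671, 2845 and 490, in the same order. In libraries labelled shHIRA II the smaller fit called 6 members. The fit of all groups called 4 there, beside 32.4% of all genes. The share of all genes called in the smaller fit is not given here, so the 6 members cannot be set against it. For control shRNA against parental, genes called were 879 with the mitochondrial covariate and 868 with DESeq2. On TPM 3 members were called between hairpins, beside 1273 genes higher and 1395 lower. Leaving out 1 library gave 1997 to 4430 genes between hairpins, 214 to 612 for control shRNA against parental, 2210 to 3140 with shHIRA I, 3253 to 4548 in libraries labelled shHIRA II and 3331 to 4681 for both together; members called were 3 to 6, 0 to 1, 1 to 3, 2 to 5 and 3 to 5 in the same order.

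Signs of uncalled values turned as follows. With the mitochondrial covariate, for both hairpins Ubn2 was 0.20, Cabin1 0.041, Daxx −0.075, Atrx 0.26 and H3f3b −0.015; with shHIRA I Ubn2 was 0.033 and Atrx 0.48; in libraries labelled shHIRA II Ubn1 was 0.042 and Atrx 0.046. Without shHIRA I replicate 3 and shHIRA II replicate 2, Ubn2 was 0.042 for both, Atrx 0.33 with shHIRA I and Asf1a −0.078 between hairpins. With only the compared groups Atrx was 0.0012 with shHIRA I. Against parental cells, both together gave Ubn2 0.081, Asf1b −0.37 and H3f3b −0.018, shHIRA I gave Asf1b −0.20 and Daxx 0.41, and libraries labelled shHIRA II gave Ubn1 0.23 and Asf1b −0.53. On TPM Ubn2 was 0.030 for both and Ubn1 0.059 in libraries labelled shHIRA II; for control shRNA against parental Cabin1 was 0.0012, Atrx 0.038 and H3f3a 0.054. Leaving out 1 library, the last comparison gave Asf1a −0.014 to 0.25, Atrx −0.25 to 0.23, H3f3a −0.10 to 0.025 and Cabin1 −0.18 to 0.035. For both hairpins Ubn2 ran from −0.14 to 0.015 and with shHIRA I Atrx from −0.76 to 0.33. In libraries labelled shHIRA II Ubn1 ran from −0.12 to 0.16 and Ubn2 from −0.0056 to 0.16, and between hairpins Asf1a from −0.038 to 0.17.

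The replicate numbers are shared by the groups but not said to mark a day or batch. Deviations from group means correlated at a median of 0.067 over 40 same-numbered pairs and −0.023 over 120 others. Of the 40 pairs 17 were above 0.1, as were 16 of the 120, and 13 of 20 libraries correlated best with their own number. The edgeR test on all 20 libraries did not take this number into account. With the replicate block, Hira was −0.62 for both hairpins (adjusted p = 0.000286), Ubn1 with shHIRA I was called (0.55, adjusted p = 0.0408) and Cabin1 between hairpins was not (adjusted p = 0.0597).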

Other observations

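Among the genes whose log2 CPM lay closest to that of Hira over the 20 libraries were Gpr146 (Pearson r = 0.92), Fem1a (0.91), Spats2 (0.91) and Pmepa1 (0.89). For H3f3a they were Ptpra, Ptplb, Ak3, Anxa4 and Rsu1 (0.93 to 0.94), and for Asf1a Fhl2, Tex10, Tnfaip3, Hectd2 and Gnat1 (0.85 to 0.88). The libraries share 5 groups, so these values describe likeness of pattern and carry no test.

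Atrx was highest in shLuciferase replicate 2 (234 CPM, mitochondrial share 9.96%) and shHIRA I replicate 2 (229 CPM, 9.58%), followed by parental replicate 2 (156 CPM, 7.45%). It was lowest in shHIRA I replicate 3 (23.1 CPM, 1.23%) and shHIRA II replicate 2 (35.8 CPM, 2.88%). In shScramble replicate 2 Atrx stood at 89.6 CPM (9.75%) and in parental replicate 3 at 84.1 CPM (8.88%). The relation of Atrx to mitochondrial share was not tested. Asf1b was lowest of its groups in shLuciferase replicate 2 and shHIRA I replicate 2 (27.7 and 25.3 CPM). With mitochondrial share as covariate the log2 fold change of Atrx for both hairpins together was 0.26 (adjusted p = 0.434), against −0.48 without it (adjusted p = 0.296). Leaving out 1 library gave −0.86 to −0.25, with a call without shHIRA I replicate 2 (−0.86, adjusted p = 0.0235).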
